A study of Mus musculus with 10 samples.

Results

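The activating transcription factor 4 (ATF4) stress response and the genes of amino acid supply were followed in MC38 tumor cells from mice on a control diet or a high-fat diet. The list held 40 genes named by symbol: regulators of the ATF4 arm, its effectors, enzymes of serine, one-carbon, asparagine, proline and glutamate metabolism, and amino acid transporters. Each symbol matched 1 row of the count table by Ensembl gene identifier, so 40 of 53379 genes are described, of which 36 were expressed well enough to be tested. The MC38 line derives from a mouse colon carcinoma and was implanted into C57BL/6J mice. The cells carried dTomato and were sorted 21 days after implantation as dTomato-positive and CD45-negative, CD45 being the common leukocyte surface protein, and 1 library was made per mouse. Control libraries came from 5 control-diet mice and high-fat libraries from 5 high-fat-diet mice. All share the one implanted line, while the make-up of the diets, the time on them, and the animals' age and sex were not stated in the labels.

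Cells that run short of amino acids or are otherwise stressed phosphorylate the translation factor eIF2, which slows protein synthesis in general but favours translation of the Atf4 mRNA. The ATF4 protein, paired with a C/EBP-family partner, then induces genes that import amino acids, make serine, asparagine, proline and one-carbon units, and build glutathione. Its targets also include the feedback genes Trib3 and Ppp1r15a and the transcription factor Ddit3, known as CHOP. Tumor cells use this programme to keep growing where nutrients are scarce.

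Control libraries held 17050797 to 18653705 counts and high-fat libraries 16513388 to 17154050. Levels below are CPM, the share of a library's counts scaled by the TMM method to a common total, as mean ± SD over 5 mice unless each library is given; libraries are listed in the order of the mouse numbers, 1 to 5. Changes are log2, high-fat minus control, with their standard error (SE). A gene passed where its adjusted p in edgeR's quasi-likelihood test was under 0.05, with adjustment over all genes tested. Epithelial markers were near 0: the summed level of 7 (Epcam, Krt8, Krt18, Krt20, Cdx2, Vil1 and Cdh1) ran from 1.17 to 4.51 CPM over the 10 libraries. The 5 fibroblast-type genes Pdgfra, Dcn, Lum, Col1a1 and Col3a1 summed to between 6146 and 12232 CPM. Most of that sum was Col3a1, at 5140 to 10486 CPM, while Col1a1 was at 80.9 to 248 CPM and Lum at 2.84 to 38.6 CPM. The 10 macrophage markers had lower means on the high-fat diet, 10 of 10 in sign, with a summed level of 58.3 to 412.6 CPM in control and 26.4 to 65.1 CPM in high-fat libraries, and control mice 3 and 4 were highest, at 364 and 412.6 CPM. The 6 T and NK cell markers summed to 0.212 to 16.7 CPM in control and 1.05 to 10.99 CPM in high-fat libraries, with Cd3e and Cd3d at or under an average of 3 counts per library. The 4 adipocyte markers were all at or under that level.

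Transcripts of the ATF4 arm and of amino acid supply had lower mean levels in tumor cells from high-fat mice in nearly every branch of the list, but no single member passed. Of 36 tested members 35 had a negative change and 1, the kinase gene Eif2ak4, a positive one; over all 14337 genes tested 48.6% were negative. The median change of the members was -0.25, against 0.01 over all genes. The members were chosen with earlier results of these data known, so their shared direction is no independent result. In edgeR 0 of the 36 passed after adjustment, where 0.0628% of all genes did (0.0209% lower and 0.0418% higher), and the smallest adjusted p was 0.118, that of Slc7a11. At an unadjusted p under 0.05 there were 16 lower and 1 higher members, where the shares over all genes were 6.62% and 5.45%. DESeq2 called 5 members, all lower (Cebpb, Mthfd1l, Aldh1l2, Pycr1 and Slc7a11), where it called 1.29% of the 17737 genes with an adjusted p as lower. Limma-voom called 0 members and 0.0349% of all genes. In bulk samples fewer cells of a type and less RNA per cell cannot be told apart.

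The mice did not contribute evenly. Standings were counted over the 36 tested members only, and the same count over all genes was not made. Control mice 1 and 2 were each among the 3 highest libraries for 33 of the 36 tested members, and high-fat mouse 3 was the lowest of all for 18. Control mouse 5 was among the 3 highest for 18. High-fat mouse 5 stood with these controls: it was among the 3 highest for 17 members, and the highest of its diet for 28. Control mice 3 and 4, the libraries with the most macrophage transcript, were the lowest of their diet for 19 and 12 members and among the 3 highest of all for 0 and 1.

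**Figure D1:**
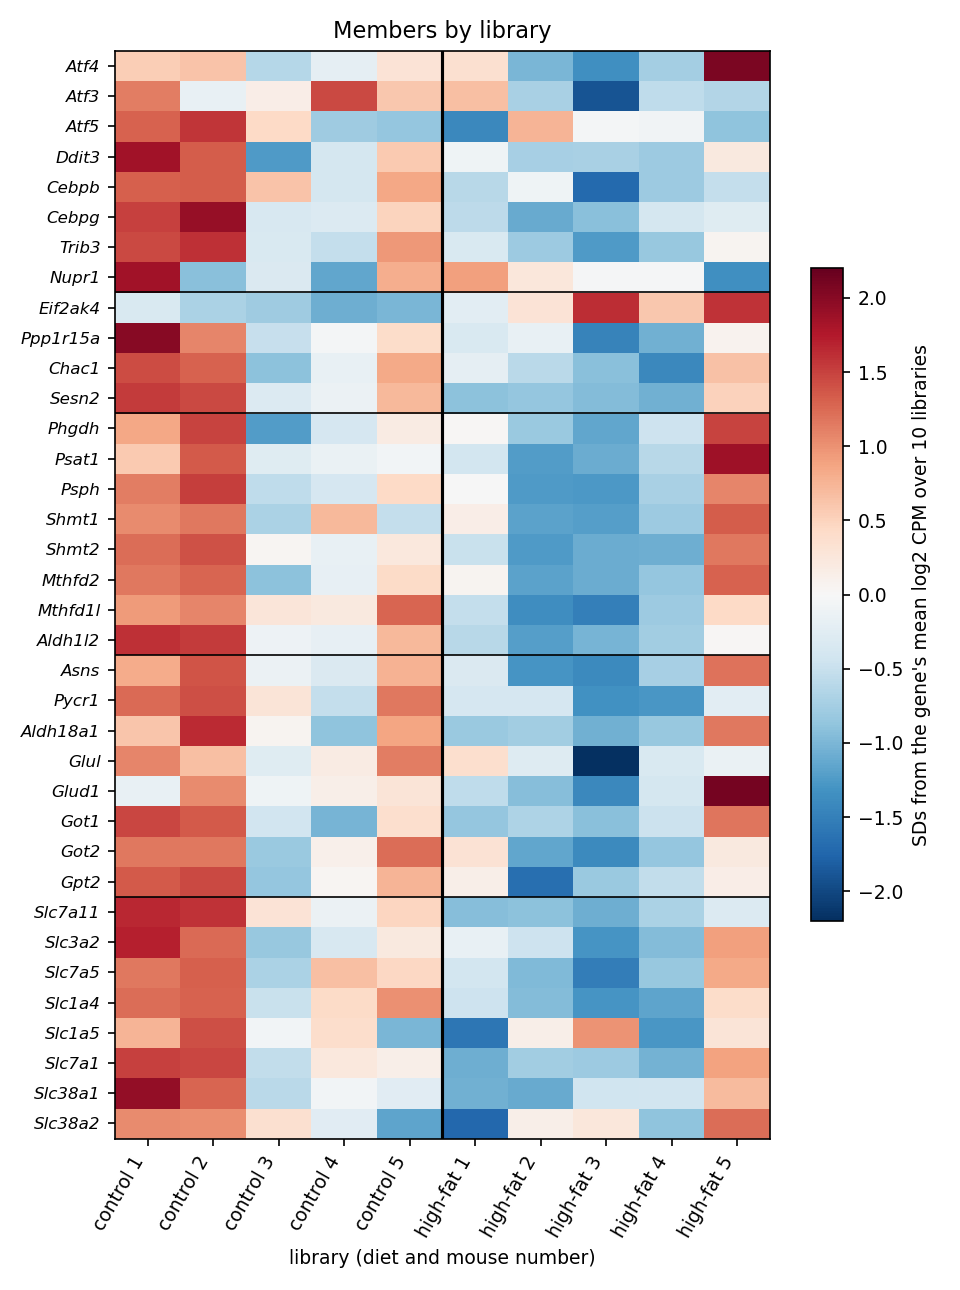
Level of the 36 tested members (rows, by role) in each of the 10 libraries (columns), as SDs of log2 CPM from the gene's own mean over the 10 libraries. Control mice 1 and 2 are red in most rows and high-fat mice 2, 3 and 4 blue, while high-fat mouse 5 is red for many enzymes and transporters.

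The size of the difference moved with the libraries. Without high-fat mouse 5 the median change over the same 36 members was -0.38, and of the 37 members tested in that fit 27 were lower, against 7.54% of all genes, and 1 higher at an unadjusted edgeR p under 0.05, with 0 past the adjusted threshold. The next 3 alternatives were chosen after the data were seen, and each called more genes overall than the 9 called with all libraries and diet alone. Without control mice 3 and 4 the median was -0.40 and 9 members passed in edgeR, all lower: Cebpb, Cebpg, Trib3, Sesn2, Aldh1l2, Pycr1, Gpt2, Slc7a11 and Slc1a4. In that fit 1.07% of all genes were called lower, 276 genes in both directions together. With the macrophage level as a covariate the median was -0.48 and 7 passed, all lower, where 0.844% of all genes were called lower and 279 genes in all. That level ran from 58.3 to 412.6 CPM in control and 26.4 to 65.1 CPM in high-fat libraries, highest in control mice 3 and 4. The covariate therefore goes partly with diet, and this fit is not independent of the one without those mice. Limma-voom with sample weights, which gives less weight to libraries far from their group, called 18 members, all lower, where it called 3.06% of all genes lower and 811 genes in all. Control mice 3 and 4 are the lowest controls for many members, so their removal by itself makes the difference larger. With library size as a covariate 9 members were lower at an unadjusted edgeR p under 0.05, against 3.29% of all genes, 0 passed and 32 of 36 were negative.

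The largest log2 change among the tested members was that of a gene of cystine import. Slc7a11 (ENSMUSG00000027737.10, chromosome 3, 49892526 to 50443614, GRCm38) encodes the light chain of the xc- antiporter, which takes up cystine for glutathione in exchange for glutamate. Its level was 48.9, 47.5, 26.99, 22.3 and 29.1 CPM in the control libraries and 15.6, 15.8, 14.7, 17.4 and 20.7 CPM in the high-fat libraries. Every high-fat library lay below every control library; the same held for 1.10% of all genes tested and for no other member. The means were 34.97 ± 12.4 and 16.8 ± 2.36 CPM, a change of -1.05 (SE 0.21) with an edgeR adjusted p of 0.118, which ranged from 0.0632 to 0.328 when each library was left out in turn. Its partner Slc3a2, the heavy chain shared by several exchangers, was at 451 ± 66.2 and 403 ± 48.1 CPM, a change of -0.16 (SE 0.11).

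ATF4 with a C/EBP partner recognises a composite element, and the start region of Slc7a11 holds it as a pair of copies facing each other, which is why its sequence is shown first below. The motif searched was TGATGNAA on both strands, in RefSeq windows (GRCm38.p6) from 250 bases before to 50 after each start. Of the 40 members 36 had such a window (all but Aldh1l2, Slc7a5, Slc1a5 and Slc38a1), and 9 of them (25%) held a match, as did 4.51% of 27025 genes with a window. The list was drawn up around the ATF4 arm, so the higher share among members is no independent result. The stretches below are from those windows, on the strand of the gene, with each match in capitals; TTGCATCA is the motif read on the opposite strand.
Slc7a11 (chr3:50443637-50443695): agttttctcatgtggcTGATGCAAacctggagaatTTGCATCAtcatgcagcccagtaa
Chac1 (chr2:119351033-119351072): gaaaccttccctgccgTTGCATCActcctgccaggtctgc
Atf3 (chr1:191183420-191183459): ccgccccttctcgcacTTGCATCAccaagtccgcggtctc
Pycr1 (chr11:120643828-120643867): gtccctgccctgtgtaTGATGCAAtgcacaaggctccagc
Got1 (chr19:43524684-43524723): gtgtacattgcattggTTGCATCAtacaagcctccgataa
Nupr1 (chr7:126625557-126625596): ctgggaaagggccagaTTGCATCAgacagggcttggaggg
Asns (chr6:7693210-7693248): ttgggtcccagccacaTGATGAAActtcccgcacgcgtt

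In Trib3 and Slc1a4, the other members with a match, it lay after or across the start. The Asns match has A where N stands in the motif. Changes of the 9 members with a match ran from -1.05 for Slc7a11 to -0.03 for Nupr1, with a median of -0.44 and 9 of 9 negative. The 23 tested members with a window and no match had a median of -0.23, with 22 negative. A match describes these letters only and is not evidence of binding.

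**Figure D2:**
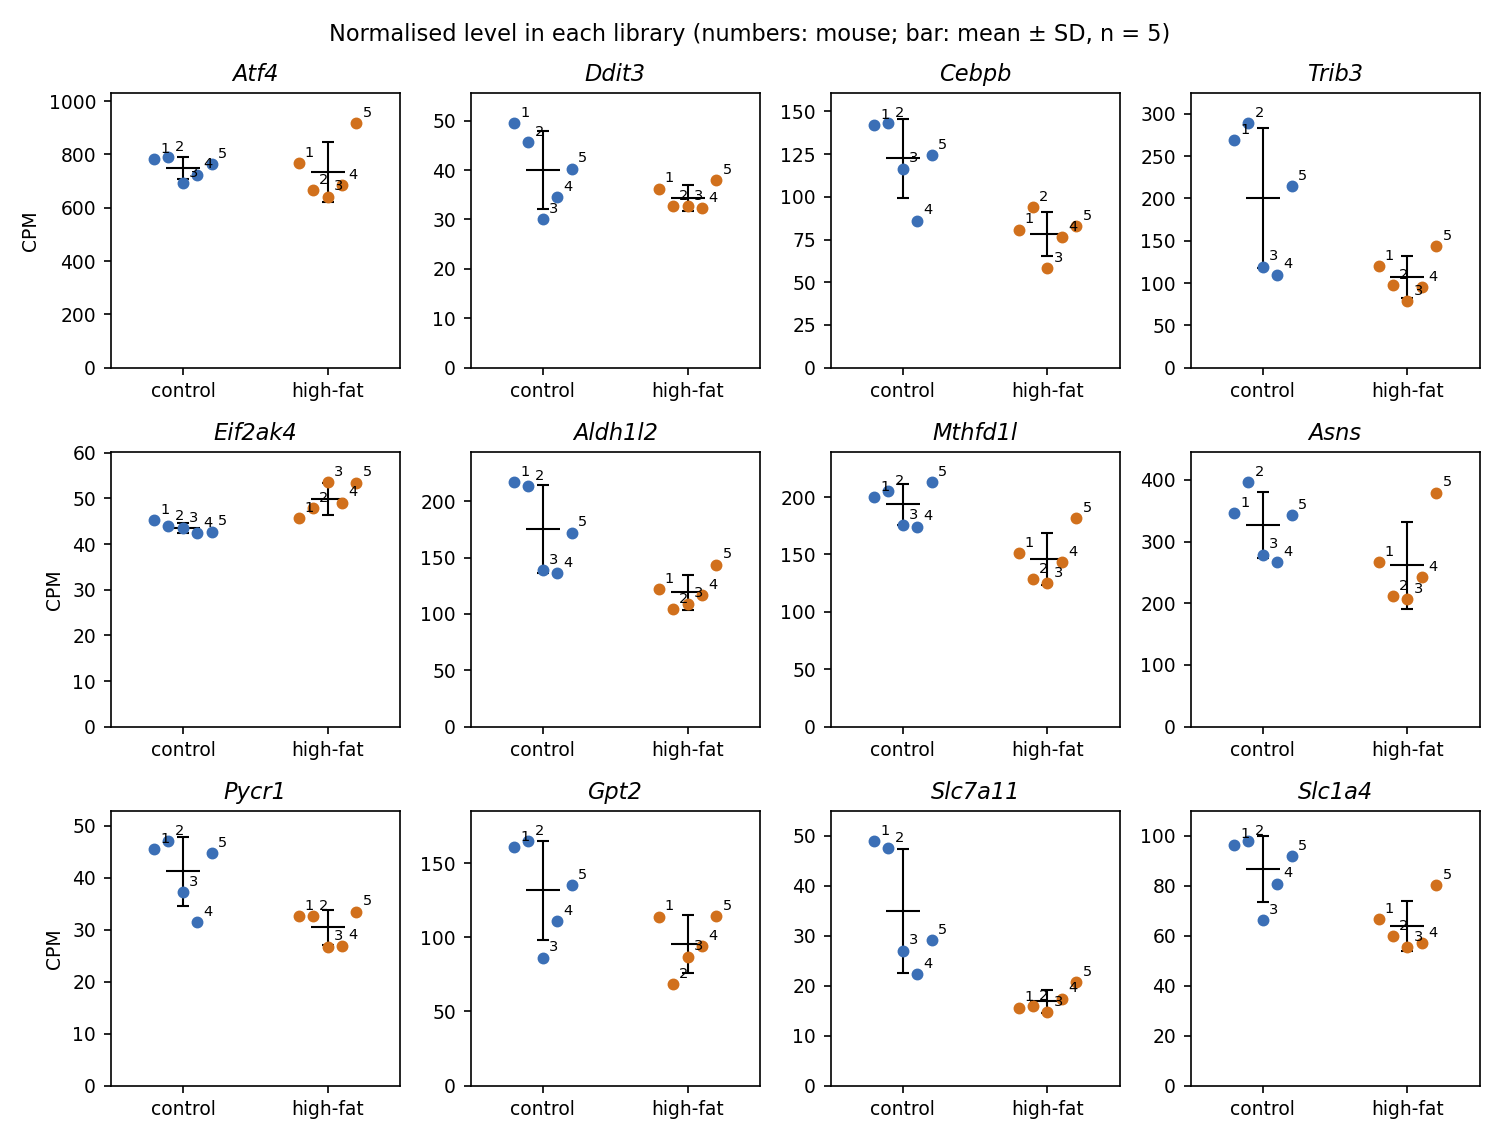
CPM (vertical axes, from 0) of 12 members in each control (blue) and high-fat (orange) library, with the mouse number beside each point and bars for mean ± SD over 5 mice. Slc7a11 has no overlap between the diets, Eif2ak4 is higher in all high-fat libraries, and the high-fat libraries of Atf4 lie on either side of the controls.

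The Atf4 transcript itself differed little between the diets. Atf4 (chromosome 15, 80255184 to 80257541) was at 782, 789.7, 692, 724 and 763 CPM in control and 767, 665, 642, 684 and 918 CPM in high-fat libraries, with high-fat mouse 5 above all controls and high-fat mice 2, 3 and 4 below them. Its change was -0.03 (SE 0.10) (edgeR adjusted p = 0.941), and its sign turned with some libraries left out. Per length it was the most abundant member, at 318 ± 17.6 CPM per kilobase of exon in control and 312 ± 47.8 in high-fat mice. Atf5, a related factor that is also under translational control, followed at 189 ± 13.7 and 181 ± 9.64 CPM per kilobase. Atf5 had a change of -0.06 (SE 0.07) and Nupr1, a small stress-induced chromatin protein, one of -0.03 (SE 0.12), which also turned sign.

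Trib3, a pseudokinase that restrains ATF4 and CHOP (chromosome 2, 152337422 to 152344032), was at 269, 289, 119, 109.9 and 215 CPM in control and 119.7, 97.2, 79.1, 95.05 and 143 CPM in high-fat libraries. Control mice 1, 2 and 5 lay above every high-fat library, and control mice 3 and 4 lay within the high-fat range. Its change was -0.91 (SE 0.28) with an edgeR adjusted p of 0.243. Atf3, a repressor and feedback factor induced by many stresses, stood at 19.5, 10.1, 11.9, 23.1 and 14.97 CPM in control and 15.5, 7.71, 4.21, 8.34 and 7.93 CPM in high-fat libraries, a change of -0.86 (SE 0.31). Its highest library was control mouse 4, and high-fat mouse 1 overlapped the controls.

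Cebpb, a C/EBP factor of inflammation and differentiation (chromosome 2, 167688915 to 167690418), was at 142, 143, 117, 86.05 and 124 CPM in control and 80.8, 93.99, 58.4, 76.2 and 82.7 CPM in high-fat libraries. The diets overlapped only through control mouse 4 and high-fat mouse 2. The change of Cebpb was -0.64 (SE 0.15) (edgeR adjusted p = 0.157); part of its transcript overlaps Tmem189 on the opposite strand. Cebpg, a partner of ATF4, was at 134, 143, 98.9, 99.7 and 114 CPM in control and 95.2, 87.4, 90.2, 98.2 and 100.2 CPM in high-fat libraries, a change of -0.32 (SE 0.10). Here control mice 1, 2 and 5 lay above all high-fat libraries. Ddit3, which promotes cell death in prolonged stress, was at 49.5, 45.6, 30.03, 34.5 and 40.3 CPM in control and 36.2, 32.6, 32.7, 32.2 and 38.02 CPM in high-fat libraries. The high-fat libraries were close together and lay inside the control range, and the change was -0.22 (SE 0.12) (edgeR adjusted p = 0.52996). Taking the 8 regulators as a list, 8 were negative, with a median of -0.27.

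Eif2ak4, which encodes GCN2, the eIF2 kinase that senses uncharged tRNA, was the one member with a positive change. It was at 45.3, 43.9, 43.6, 42.4 and 42.7 CPM in control and 45.7, 47.9, 53.6, 49.1 and 53.5 CPM in high-fat libraries. All high-fat libraries lay above all controls, as for 1.08% of all genes tested, though by a small margin. Its change was 0.20 (SE 0.06) with an edgeR adjusted p of 0.254. With library size or the macrophage level as a covariate its unadjusted p was no longer under 0.05.

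Ppp1r15a, or GADD34, recruits the phosphatase that reverses eIF2 phosphorylation. It was at 221, 175, 118, 132 and 148 CPM in control and 123, 128, 92.3, 102 and 136 CPM in high-fat libraries, a change of -0.45 (SE 0.17). Control mice 1, 2 and 5 lay above all high-fat libraries, and control mice 3 and 4 within their range. Sesn2, a leucine sensor that restrains mTORC1, was at 101, 98.9, 64.8, 67.6 and 82.7 CPM in control and 56.2, 56.8, 55.5, 54.1 and 78.8 CPM in high-fat libraries, a change of -0.46 (SE 0.15) (edgeR adjusted p = 0.243). For Sesn2 high-fat mouse 5 alone overlapped the controls. Chac1, which degrades glutathione, was at 73.03, 69.3, 30.1, 39.8 and 58.02 CPM in control and 39.2, 33.8, 30.04, 24.8 and 54.1 CPM in high-fat libraries, with a change of -0.57 (SE 0.26). Gdf15, a secreted stress hormone, was too low to test, with 36 counts over all libraries. It ranged from 0.114 to 0.796 CPM in control and 0 to 0.175 CPM in high-fat libraries; a count of 3 corresponds to between 0.158 and 0.183 CPM.

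**Figure D3:**
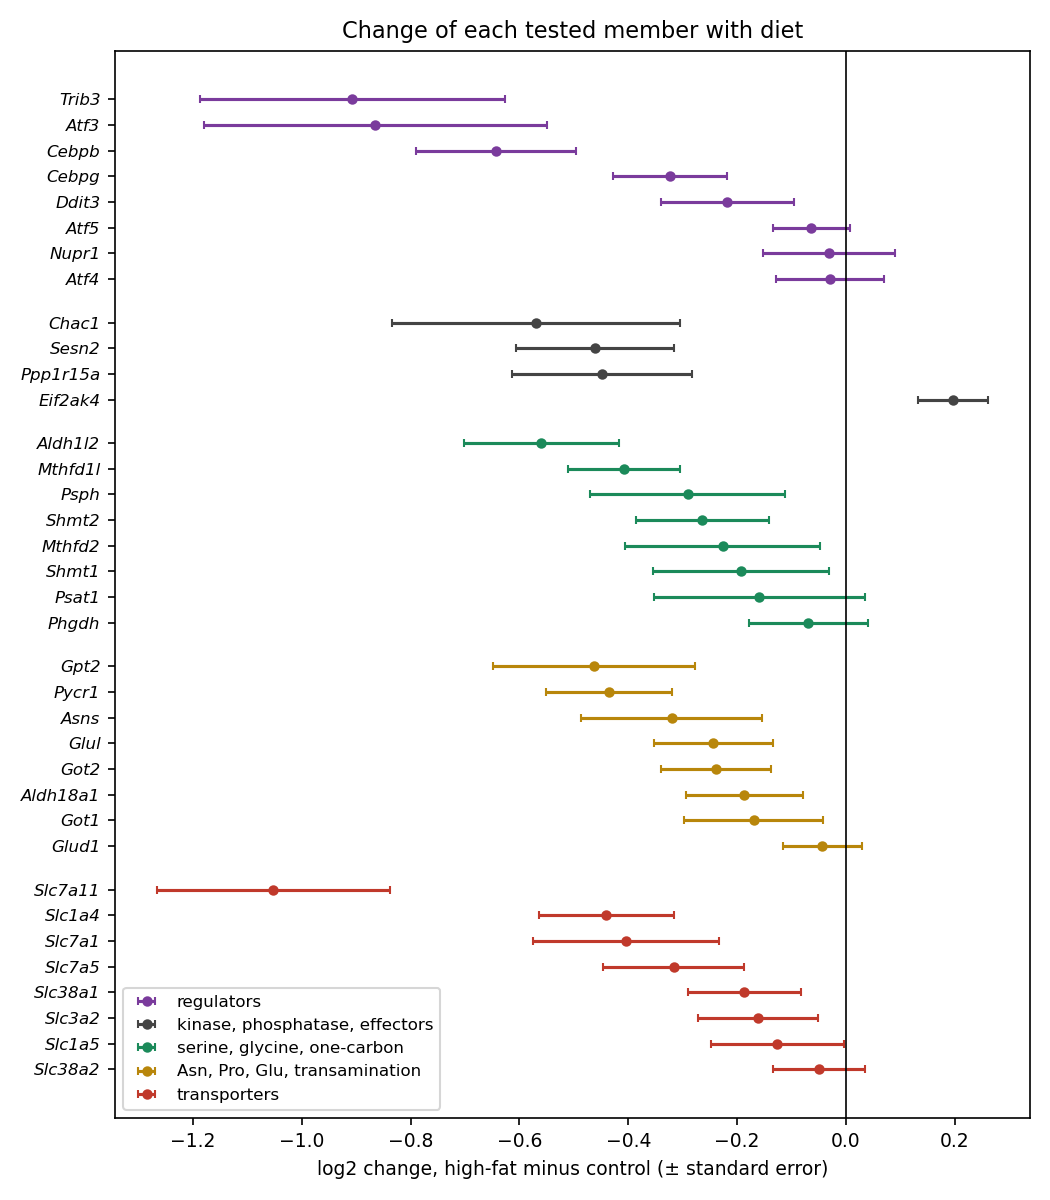
Log2 change, high-fat minus control (horizontal axis), of the 36 tested members with standard errors from edgeR, grouped and coloured by role. Points lie left of 0 for 35 members, from -1.05 for Slc7a11, and right of 0 for Eif2ak4 at 0.20.

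The genes of serine, glycine and one-carbon metabolism had 8 of 8 negative changes, with a median of -0.25. The changes furthest from 0 were those of Aldh1l2 and Mthfd1l, both mitochondrial enzymes of formyl-tetrahydrofolate. Aldh1l2, which oxidises formyl-tetrahydrofolate and yields NADPH (chromosome 10, 83487450 to 83534140), was at 217, 214, 139, 136 and 172 CPM in control and 122, 104, 109, 117 and 144 CPM in high-fat libraries. Only high-fat mouse 5 reached the control range, above control mice 3 and 4. Its change was -0.56 (SE 0.14) with an edgeR adjusted p of 0.183; some of its exon sequence overlaps D10Wsu102e on the opposite strand. Mthfd1l, the synthetase that releases formate (chromosome 10, 3973118 to 4167081), was at 199.7, 205, 176, 174 and 213 CPM in control and 151, 129, 125, 144 and 181 CPM in high-fat libraries, with high-fat mouse 5 again the one that overlapped. It had a change of -0.41 (SE 0.10) and an edgeR adjusted p of 0.183.

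The 3 enzymes that make serine from a glycolytic intermediate showed smaller differences. Phgdh, which commits carbon to the pathway, averaged 71.9 ± 9.62 CPM on the control and 68.5 ± 9.48 CPM on the high-fat diet, Psat1 at 571 ± 96.2 and 511 ± 175 CPM, and Psph at 71.6 ± 15.4 and 58.5 ± 14.7 CPM. Their changes were -0.07, -0.16 and -0.29. For Psat1 the high-fat mean was raised by mouse 5, at 818 CPM against 395 to 479.9 CPM in mice 1 to 4. Of the Phgdh transcript 63.1% of windows of 50 bases occur in other genes' transcripts, so its level is less certain. Serine is then turned into glycine and one-carbon units by Shmt2 in mitochondria and Shmt1 in the cytosol, with changes of -0.26 (SE 0.12) and -0.19 (SE 0.16). Mthfd2, the mitochondrial dehydrogenase of the folate pathway, had a change of -0.23 (SE 0.18).

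Among the genes of asparagine, proline, glutamate and transamination 8 of 8 tested were negative, with a median of -0.24. Pycr1, the last enzyme of proline synthesis (chromosome 11, 120635712 to 120643769), was at 45.6, 47.1, 37.3, 31.5 and 44.7 CPM in control and 32.6, 32.6, 26.7, 26.97 and 33.5 CPM in high-fat libraries. Control mice 1, 2, 3 and 5 lay above all high-fat libraries and control mouse 4 below 3 of them. The change was -0.44 (SE 0.12) (edgeR adjusted p = 0.183). Aldh18a1, which starts proline synthesis from glutamate, had a change of -0.19 (SE 0.11). Asns, asparagine synthetase and a classical ATF4 target, was at 326 ± 53.6 and 261 ± 70.2 CPM with a change of -0.32 (SE 0.17); its range was 267 to 397 CPM in control and 207 to 379 CPM in high-fat libraries.

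Gpt2, the mitochondrial alanine transaminase, was at 161, 165, 86.3, 111 and 135 CPM in control and 114, 68.5, 86.96, 93.9 and 114 CPM in high-fat libraries, a change of -0.46 (SE 0.19). Control mice 3 and 4 lay among the high-fat libraries. Glul, glutamine synthetase, was at 45.9, 42.97, 37.1, 39.8 and 46.3 CPM in control and 41.03, 36.99, 26.6, 36.7 and 37.8 CPM in high-fat libraries, and Glul had a change of -0.24 (SE 0.11). High-fat mouse 3 was the lowest, and control mice 3 and 4 lay within the high-fat range. Got2, the mitochondrial aspartate transaminase, was at 77.1, 77.2, 58.1, 66.4 and 78.004 CPM in control and 68.4, 55.4, 53.4, 57.8 and 67.5 CPM in high-fat libraries, a change of -0.24 (SE 0.10); 47.2% of its windows are shared with other transcripts. Control mice 1, 2 and 5 again lay above every high-fat library. The cytosolic enzyme Got1 and the glutamate dehydrogenase Glud1 had changes of -0.17 (SE 0.13) and -0.04 (SE 0.07). Prodh, which degrades proline, and Ass1, which makes argininosuccinate for arginine synthesis, were not tested. Prodh had 82 counts in all and ranged from 0.285 to 0.593 CPM in control and 0.417 to 1.04 CPM in high-fat libraries. Ass1 had 99 counts and ranged from 0.342 to 1.32 CPM in control and 0.0598 to 0.715 CPM in high-fat libraries. Of the Ass1 windows 55.3% are shared.

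Of the 8 tested transporters 8 were negative, with a median of -0.25. Besides Slc7a11 the neutral amino acid exchanger Slc1a4, which carries serine and alanine, was at 96.4, 97.9, 66.2, 80.9 and 91.7 CPM in control and 66.6, 59.7, 55.5, 57.1 and 80.4 CPM in high-fat libraries. The overlap came from control mouse 3, below high-fat mice 1 and 5. Its change was -0.44 (SE 0.12) with an edgeR adjusted p of 0.198. Slc7a1, the main carrier of arginine and lysine, was at 453, 448, 272, 328 and 320.3 CPM in control and 238, 257, 255, 239.8 and 387 CPM in high-fat libraries, a change of -0.40 (SE 0.17). Here high-fat mouse 5 exceeded control mice 3, 4 and 5, while high-fat mice 1 to 4 lay below all controls. Slc7a5, or LAT1, brings in leucine and other large neutral amino acids and was at 606, 626, 425, 551 and 529.6 CPM in control and 449.9, 403, 362, 414 and 569.6 CPM in high-fat libraries, a change of -0.32 (SE 0.13).

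The glutamine carriers differed less. Slc38a1 had a change of -0.19 (SE 0.10), Slc1a5 (ASCT2) one of -0.13 (SE 0.12) and Slc38a2 (SNAT2) one of -0.05 (SE 0.08), with levels of 427 ± 33.8 and 413 ± 40.2 CPM for Slc38a2. The glutamate transporter Slc1a3 had 8 counts over all libraries and was not tested. Per kilobase of exon Slc7a5 was the most abundant transporter, at 148 ± 21.3 CPM in control and 119 ± 21.3 CPM in high-fat mice, and Slc7a11 the least of those tested, at 2.51 ± 0.888 and 1.21 ± 0.169 CPM.

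Genes beyond the 40 were counted in 4 further lists of the same pathways. Like the members, these lists were chosen with earlier results of these data known, so their counts are no independent support. In a list of 12 tested ATF4 targets 11 had negative changes, with a median of -0.38, and 0 passed. At an unadjusted edgeR p under 0.05 there were 7 lower and 0 higher, where the shares over all genes were 6.62% and 5.45%. The smallest p values were those of Vldlr, a lipoprotein receptor, Cth, which makes cysteine from cystathionine, and Slc6a9, a glycine transporter. Cth was at 17.98, 17.8, 7.29, 9.77 and 11.5 CPM in control and 7.39, 5.44, 5.19, 6.39 and 6.94 CPM in high-fat libraries, a change of -1.04 (SE 0.23) (edgeR adjusted p = 0.153). Control mice 1 and 2 were highest, and the overlap was that of control mouse 3 with high-fat mouse 1. Vldlr had a change of -0.62 (SE 0.11) and Slc6a9 one of -0.44 (SE 0.10). For Vldlr every high-fat library lay below every control library, as for 1.10% of all genes tested. Slc6a9 shares 41.2% of its windows of 50 bases with other transcripts and overlaps Ccdc24 on the opposite strand over 1429 of its 5141 exon bases, so its level is less certain.

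A further list held eIF2 kinases, subunits of eIF2 and of its exchange factor eIF2B, and linked regulators, without the members Eif2ak4 and Ppp1r15a. It was evenly divided: of 14 genes 7 were negative and 7 positive, with a median of -0.001. Its kinase genes Eif2ak1, Eif2ak2 and Eif2ak3 all had positive changes, that of Eif2ak1 being 0.07 (SE 0.07). At an unadjusted edgeR p under 0.05 there were 1 lower and 1 higher, where the shares over all genes were 6.62% and 5.45%. The smallest p values were those of Eif2ak3, the ER stress kinase PERK, with a change of 0.28 (SE 0.12), Eif2b3 of the exchange factor eIF2B, with -0.23 (SE 0.10), and the interferon-inducible kinase PKR (Eif2ak2), with 0.25 (SE 0.14). Of 10 genes of the IRE1 and ATF6 arms of the ER stress response 8 were positive and 2 negative, with a median of 0.13. In this list 1 was lower and 3 higher at an unadjusted edgeR p under 0.05, against 6.62% and 5.45% of all genes. The ER chaperone genes Pdia4 and Hsp90b1 had changes of 0.34 (SE 0.09) and 0.25 (SE 0.09), while Atf6, which encodes the sensor, had one of -0.41 (SE 0.10). All high-fat libraries of Atf6 lay below all controls, as for 1.10% of all genes tested. None of these genes passed in edgeR, where 0 of 14 and 0 of 10 had an adjusted p under 0.05, and the difference between the arms was not tested.

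Of 16 further tested genes of amino acid transport and synthesis 10 were negative, with a median of -0.03, and 0 passed. At an unadjusted edgeR p under 0.05 there were 3 lower and 0 higher, where the shares over all genes were 6.62% and 5.45%. Those 3 were the transporters Slc7a8 (LAT2), Slc43a2 and Slc7a2. Slc7a8 was at 3.56, 1.11, 7.405, 8.72 and 1.08 CPM in control and 0.298, 1.02, 0.427, 0.651 and 0.6998 CPM in high-fat libraries. The diets did not overlap, and 1.10% of all genes tested were likewise lower without overlap. The 2 highest libraries of Slc7a8, control mice 3 and 4, were those highest on macrophage markers. Slc43a2 was likewise highest there, at 6.12 and 7.18 CPM, against 1.22 to 3.32 CPM elsewhere. The part of macrophage transcripts in these differences was not tested. The arginine carrier Slc7a2 was at 20.6, 9.496, 3.91, 23.6 and 15.7 CPM in control and 11.1, 2.09, 1.16, 3.73 and 2.22 CPM in high-fat libraries, where control mice 2 and 3 lay below high-fat mouse 1.

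**Figure D4:**
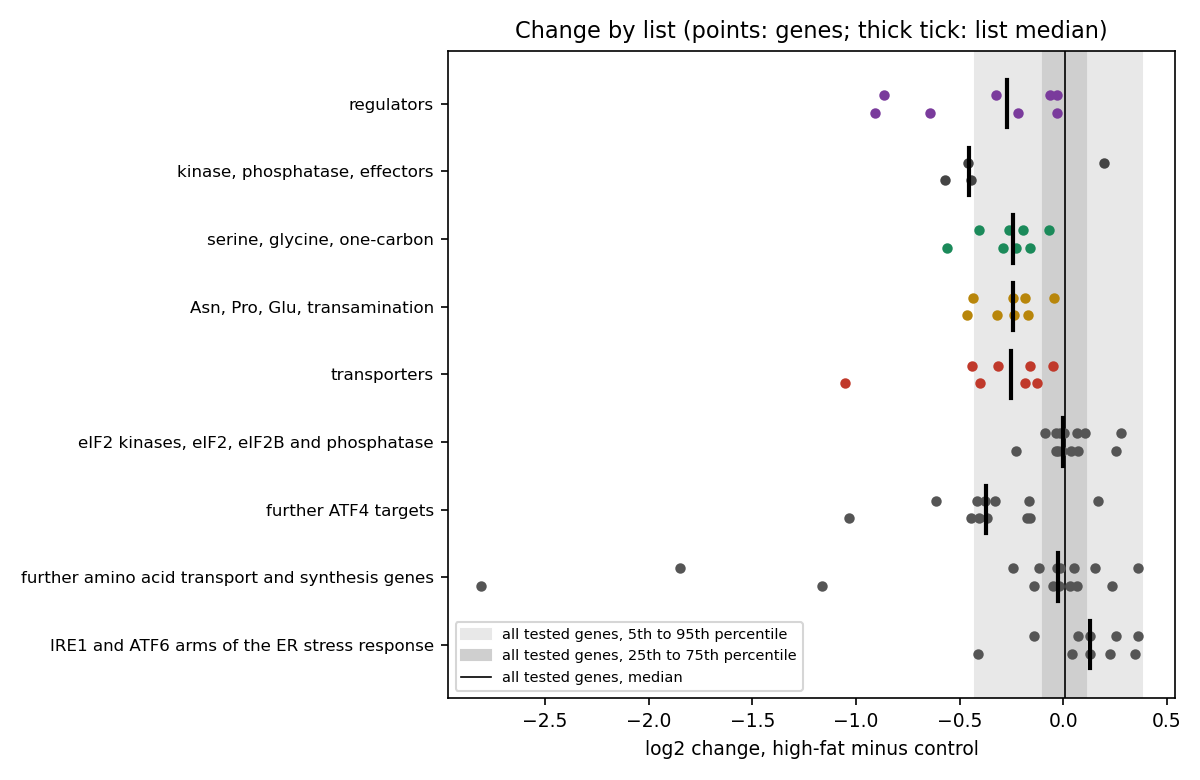
Log2 change, high-fat minus control (horizontal axis), of every tested gene in the 5 groups of members (coloured) and the 4 further lists (grey), with each list's median as a thick tick; bands mark the spread of all 14337 tested genes. Medians of the member groups lie between -0.45 and -0.24, that of the eIF2 machinery at -0.001 and that of the IRE1 and ATF6 arms at 0.13.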

How the data were processed

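RNA was sequenced from sorted MC38 cells of 10 mice. The authors deposited raw counts per gene, as whole numbers, in 1 table of 53379 Ensembl genes. Libraries were made from polyA RNA with a NEBNext Ultra kit, per the labels' protocols. Per the submitters' processing notes, which give no roles, cutadapt 1.15, FastQC 0.11.5, BWA 0.7.12 and DESeq2 1.24.0 were used, with GRCm38 and mm10. No counting program, annotation release or strand setting is stated in the labels, so overlapping genes on opposite strands cannot be told apart: among members this touches Aldh1l2, Cebpb, Cebpg, Atf5, Ddit3, Glul, Got2, Ppp1r15a, Psph, Shmt1 and Shmt2, and among the other genes named Slc6a9, Hsp90b1, Eif2ak2, Eif2ak3, Slc43a2 and Slc7a2. BWA does not align across splice junctions, which can lower counts of genes with many short exons if it made these alignments.

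Symbols, coordinates and exon lengths came from GENCODE M21 (GRCm38), which matched 53274 genes with the version suffix ignored. The test was edgeR's quasi-likelihood F-test (version 4.0.16, R 4.3.3) of diet alone, in its robust form, after TMM scaling. The filterByExpr function kept 14337 genes, with 99.9% of counts, and p-values were adjusted by Benjamini-Hochberg. Standard errors were derived from the change and its F statistic. DESeq2 1.42.0, limma 3.58.1, other filters, a library-size covariate, a mouse-number block and leaving out each library were alternatives. The tests were checked on simulated counts. Every 2 libraries differed by more than counting error (lowest chi-square per degree of freedom 8.26). Limits from counts cover counting error only, since the labels name no molecular identifiers. The labels give 1 library per mouse.

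All 40 members are described; every library is given for members with an unadjusted p under 0.05, for Atf4 and Ddit3, and for the largest change of each role. Of each further list the 3 genes with the smallest p are named. Members and lists were chosen with earlier results of these data known. Of the symbols Gcn1 and Gcn1l1, synonyms in 1 list, Gcn1l1 was matched.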

Additional observations from a re-analysis of the deposited data

Results flagged for a closer look

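For 9 of the 80 sets of 5 libraries (40 members in each diet) 1 library stood apart from the other 4, its gap to the nearest being more than 0.71 of the whole range; chance flags about 1 set in 20. In 7 of the 9 it was high-fat mouse 5, always the highest of its diet. It stood at 817.9 CPM for Psat1 against 479.9 CPM in the next library, at 387 against 257 CPM for Slc7a1, at 461 against 347 CPM for Shmt2 and at 306 against 235 CPM for Aldh18a1. The same mouse was at 194 against 163 CPM for Glud1, at 151.6 against 116 CPM for Got1 and at 78.8 against 56.8 CPM for Sesn2. These genes do not share 1 role: they make serine and proline, move amino groups, carry arginine and sense leucine. The other 2 were low genes: Prodh, at 1.04 CPM in high-fat mouse 3 against 0.473 CPM in the next library, and Gdf15, at 0.796 CPM in control mouse 2 against 0.297 CPM.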

How the results depend on the processing

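With each library left out in turn, edgeR called between 1 and 27 genes over all genes tested, 9 with all libraries, and leaving out control mouse 3 gave 27, high-fat mouse 1 gave 21, high-fat mouse 5 gave 13, and each other library at most 4. Members with an unadjusted p under 0.05 numbered between 12 and 28, the highest without high-fat mouse 5, and 0 members passed in any of these fits. Genes under that p ran from 1227 without control mouse 1 to 2152 without control mouse 3, with 2068 without high-fat mouse 5. Over all genes, the count was 326 with DESeq2 (97 higher, 229 lower), 5 with limma-voom, 53 with no filter on low counts, 0 with library size as a covariate (817 genes at an unadjusted p under 0.05), 276 without control mice 3 and 4, 279 with the macrophage level as a covariate and 811 with sample weights in limma-voom, the last 3 chosen after seeing the data. Members called were 5, 9, 7 and 18 with DESeq2, without control mice 3 and 4, with the macrophage level and with sample weights, all lower, and 0 otherwise. Members at an unadjusted p under 0.05 were 9 with library size, 27 without control mice 3 and 4 and 30 with sample weights. Genes under that p in the same fits were 817 of 14337, 2296 of 14586 and 3524 of 14337. With all libraries and diet alone edgeR had 1731 of 14337. The cause of these shifts was not tested. With mouse number as a block 16 genes were called (6 higher, 10 lower), 0 members passed and 20 had an unadjusted p under 0.05. Over all genes 1646 of 14337 had such a p in that fit. The equal numbers come from the sample titles only: the names of the count columns number the high-fat mice onward from the controls. The mice were therefore not taken as pairs. Deviations of same-numbered mice correlated at 0.23, -0.36, 0.33, -0.07 and 0.15, and 1 of 5 control libraries correlated best with its own number.

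Of 720 values of single members under 20 alternatives, 671 kept their sign and side of the threshold, 39 passed it with the same sign and 10 changed sign, all in members with small changes. With library size as a covariate Atf4 was 0.00979, Phgdh 0.00724 and Glud1 0.0286. With libraries left out, Atf4 ran from -0.119 to 0.0164, Nupr1 from -0.0910 to 0.0710 and Slc38a2 from -0.0928 to 0.0013. Depth limited Gdf15, Prodh, Ass1 and Slc1a3, which had between 8 and 99 counts over all libraries.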
